A study of Homo sapiens with 12 samples.

Results

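The cadherin superfamily was examined in D283 cells, an established human medulloblastoma line with amplified MYC. The group with ABL1 and ABL2 inactivated, labelled as genetic inactivation with a method not given in the sources used here, was set against the group that received a scrambled control construct. Both groups came from the same line and the same medium, and each holds 3 mRNA libraries sequenced on 2 lanes. Members were taken by gene symbol: classical and other cadherins (CDH), cadherin-related genes (CDHR), desmosomal cadherins (DSG and DSC), protocadherins (PCDH), FAT and Dachsous (DCHS) cadherins and the CELSR receptors. The rule matched 115 symbols, of which 4 were pseudogenes and were left out, leaving 111 members among 49651 genes with counts. The symbol rule itself used no measured value, but the family was chosen with earlier results of these data known.

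Cadherins are membrane proteins whose extracellular repeats bind calcium and join cells to each other. Classical cadherins hold the actin cytoskeleton at adherens junctions through catenins, and desmosomal cadherins hold intermediate filaments through plakoglobin, plakophilins and desmoplakin. Protocadherins are used above all in the nervous system: the clustered ones are expressed in combinations that give neurons a surface identity, and the non-clustered ones act in sorting and wiring. FAT and Dachsous cadherins are giant ligand and receptor pairs linked to planar polarity and Hippo signalling, and CELSR proteins are adhesion receptors of the planar polarity system. ABL kinases are known to act on actin at cell contacts.

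The inactivated libraries held 36140406, 49034159 and 34292341 counts and the control libraries 35893081, 34951232 and 33505903. Libraries of different groups stood further apart than libraries of 1 group, with a chi-square per degree of freedom of 86.7 to 111 against 3.17 to 13.6. ABL1 averaged 61.9 CPM (counts relative to the library total after TMM scaling, the trimmed mean of M values) in inactivated and 153 CPM in control cells, with a log2 fold change of -1.31 ± 0.043 (SE). ABL2 fell less, with a log2 fold change of -0.41 ± 0.051, so both targeted mRNAs were lower in the group labelled inactivated. Whether libraries within a group are separate cultures is not stated, and p-values here cover only the spread among these 6 libraries. Summed over markers of Group 3 medulloblastoma, levels were 2661 to 2762 CPM in inactivated and 2386 to 2416 CPM in control libraries, with 1 of the 8 markers, NRL, at 0 throughout. The other 7 were tested, with 5 higher, led by IMPG2 at 316 CPM in inactivated and 66.7 CPM in control cells, and with OTX2 and NEUROD1 lower, at log2 fold changes of -0.32 and -0.68.

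Of the 111 cadherin superfamily members, 40 had enough counts to be tested. By edgeR's quasi-likelihood test, 29 of these passed an adjusted p of 0.05, against a background of 59.3% of all 14704 genes tested. There were 14 higher in inactivated cells, or 9 by DESeq2's Wald test, and 15 lower, where 29.6% and 29.7% of all tested genes were higher and lower. The 5 that DESeq2 did not call were CDHR4, DCHS1, DSC2, PCDH9 and PCDHGA10. At least 2-fold changes were seen in 13 tested members, 4 higher and 9 lower, with 12.8% of all tested genes past both limits, 6.34% higher and 6.49% lower. The 4 higher by at least 2-fold were PCDH10, PCDH19, PCDH20 and CDH8. The 9 lower by at least 2-fold were FAT1, PCDH8, CELSR1, CDHR3, DSC3, CDH22, PCDHGA1, PCDHGA2 and PCDHGB2. The groups did not overlap for 30 tested members, and for 63.2% of all tested genes. The median log2 fold change of the tested members was -0.13, with 0.0031 over all genes tested. Members such as DSC3, PCDH20 and CDH22 could be tested only because 1 group held counts, so these counts describe the tested members and not the family.

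Summed, the family took 0.0968% to 0.101% of the counts of inactivated libraries and 0.105% to 0.111% of those of control libraries. In TMM-scaled CPM, the sum was 975 ± 20.1 CPM in inactivated and 1088 ± 33.9 CPM in control cells. Values after ± are the SD of 3 libraries for levels and the SE for log2 fold changes throughout. The FAT cadherins alone differed by more than this, at 133 ± 10.7 CPM in inactivated and 275 ± 21.1 CPM in control cells. As these are bulk libraries, fewer cells that express a gene and less RNA per cell cannot be told apart. CDHR1, CDH2, FAT4, DSG2, CDH19 and CDH24 together made up 72.9% of the family's CPM in inactivated and 64.1% in control cells.

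**Figure D1:**
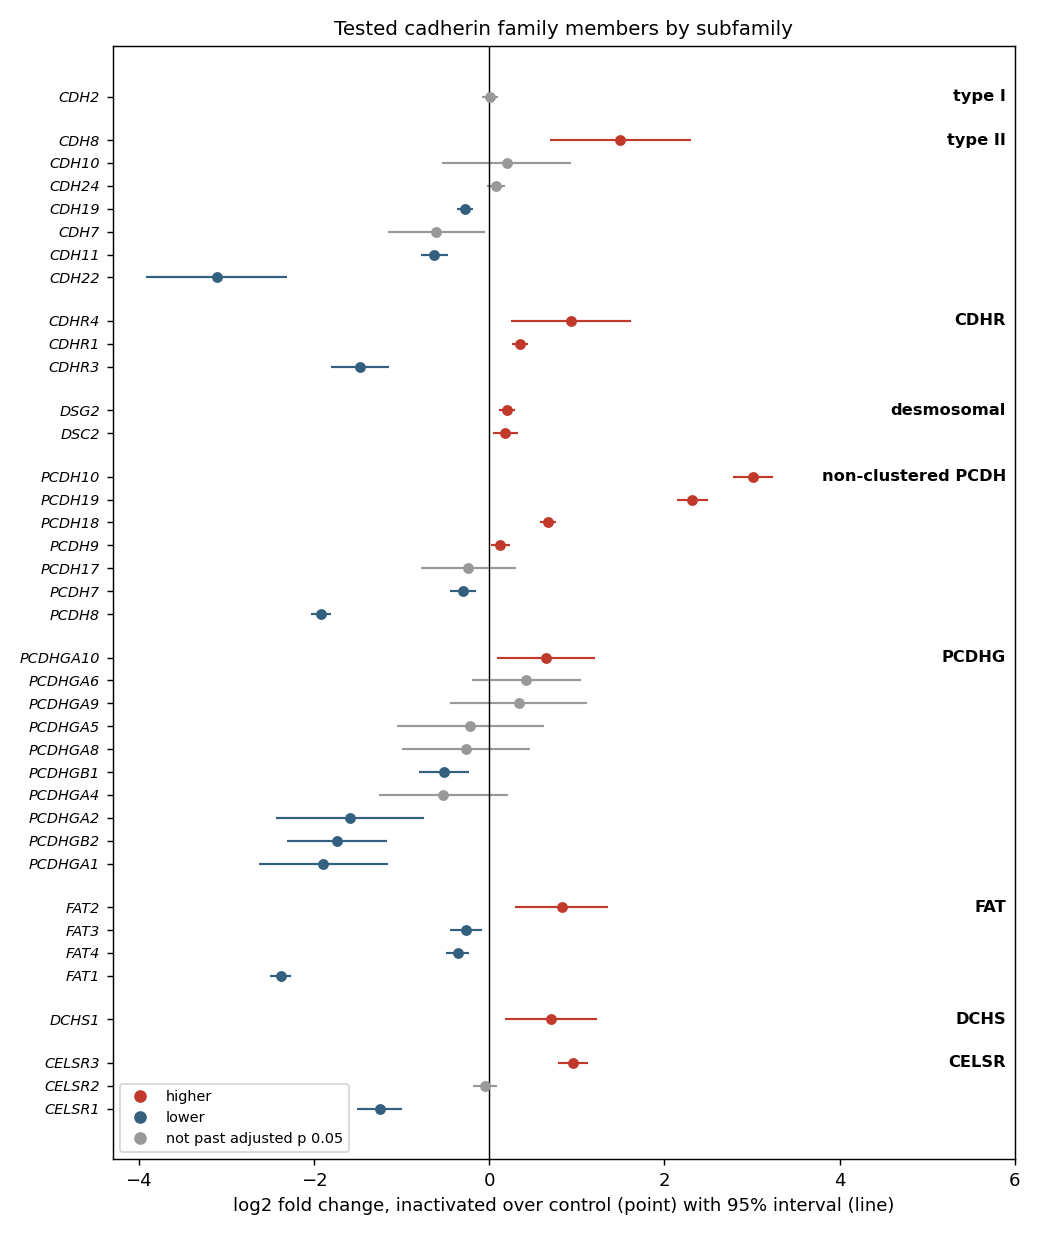
Log2 fold change (inactivated over control) of 38 of the 40 tested members, by subfamily, with points at the fitted value and lines for the 95% interval. PCDH20 and DSC3 are left out because 1 group was at 0; PCDH10 lies highest at 3.02 and CDH22 lowest at -3.11.

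Among classical cadherins, N-cadherin stayed the most abundant per length and did not pass the test. CDH2, which encodes N-cadherin, the main adherens junction cadherin of neural tissue, lies on the reverse strand at chr18:27932879-28177130 (GRCh38.p14, as for all coordinates here). It had 156, 158 and 162 CPM in inactivated libraries, against 155, 166 and 153 CPM in control libraries. The groups overlapped, and the log2 fold change was 0.01 with a 95% interval of -0.08 to 0.10. CDH2 was the 1 member tested of 5 type I cadherins. CDH1, which encodes E-cadherin, the epithelial member, had 1 count in the inactivated group and 4 in the control group. CDH3, P-cadherin, had 38 counts against 2, a ratio of 16.3 (95% interval from counting error, 4.22 to 140), but was too low to be tested.

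Of 13 type II cadherins 7 were tested, with 1 higher, 3 lower and 3 not past the threshold. The share that passed, 57.1%, was near the 59.3% of all genes tested. CDH19, known from the Schwann cell lineage, had 83.99, 88.5 and 88.2 CPM in inactivated libraries, against 104, 108 and 104 CPM in control libraries. It fell by 0.28 ± 0.042 on the log2 scale (adjusted p = 1.4e-05), a small change with every inactivated library below every control library. CDH11, a cadherin of mesenchymal and migrating neural crest cells at chr16:64943753-65123744 on the reverse strand, had 9.46, 9.57 and 9.91 CPM in inactivated libraries, against 14.4, 14.2 and 16.01 CPM in control libraries. Its log2 fold change was -0.63 ± 0.074, with an interval of -0.78 to -0.47 (adjusted p = 5.9e-07). Fibroblast and mesenchymal markers summed to 33.4 to 36.9 CPM in inactivated and 42.8 to 46.2 CPM in control libraries, with COL3A1 at 0 in all 6. PDGFRB and DCN were lower, with log2 fold changes of -0.79 and -1.75, and COL1A1 was higher, with 0.89. Their part in the CDH11 result was not tested.

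CDH22, a brain-enriched type II cadherin at chr20:46173739-46308498 on the reverse strand, was near the counting floor in inactivated cells. It had 3, 4 and 3 counts in inactivated libraries, against 31, 24 and 22 counts in control libraries. The log2 fold change was -3.11 ± 0.38, with an interval of -3.92 to -2.31 (adjusted p = 1.1e-06). CDH8, a cadherin of neuronal circuits, was scarce in both groups and went the other way, with 0.492, 0.665 and 0.555 CPM in inactivated libraries against 0.310, 0.0864 and 0.211 CPM in control libraries. Its log2 fold change was 1.49 ± 0.38 (adjusted p = 0.0025), but in counts of the second lane alone it was 0.80 with an adjusted p of 0.23.

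CDH24, which binds catenins as other type II cadherins do, was the most abundant of them per length. It had 77.0, 76.4 and 72.7 CPM in inactivated libraries, against 76.2, 67.0 and 71.5 CPM in control libraries. These groups overlapped, and the interval of the log2 fold change ran from -0.03 to 0.18. CDH7 and CDH10 were also not past the threshold, with log2 fold changes of -0.61 ± 0.26 and 0.20 ± 0.35. CDH20, untested, had 17 counts in the inactivated group and 0 in the control group, at least 4.87-fold higher against a floor of 3 counts over the group. None of the 5 other CDH genes, CDH13, CDH16, CDH17, CDH23 and CDH26, had enough counts for a test.

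Desmosomal cadherins split by gene. DSC3, desmocollin 3, lies on the reverse strand at chr18:30989365-31042742. It had 0 counts in each inactivated library, against 80, 133 and 87 counts in control libraries, which is 2.25, 3.83 and 2.62 CPM. This is at least 116-fold lower in inactivated cells against a floor of 3 counts over the group (adjusted p = 3.3e-10). DSG2, desmoglein 2, the desmoglein found in most desmosome-bearing tissues, lies close by at chr18:31498177-31549008 on the forward strand. It had 99.4, 101 and 106 CPM in inactivated libraries, against 89.6, 90.2 and 86.3 CPM in control libraries, a log2 fold change of 0.20 ± 0.043 (adjusted p = 0.00051). The groups did not overlap in either gene, and they moved in opposite directions.

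DSC2, desmocollin 2, the usual partner of DSG2, had 15.7, 15.5 and 14.9 CPM in inactivated libraries, against 14.1, 13.9 and 12.6 CPM in control libraries. The log2 fold change of 0.18 ± 0.069 passed narrowly (adjusted p = 0.028). Without inactivated replicate 1 the adjusted p was 0.064 and without control replicate 3 it was 0.14. DSC1, DSG1, DSG3 and DSG4, cadherins of stratified epithelium, were too low to be tested. Epithelial markers summed to 236 to 277 CPM in inactivated and 20.3 to 22.7 CPM in control libraries, nearly all from the keratin KRT8. KRT8 and KRT18 were higher, with log2 fold changes of 3.76 and 3.73, and KRT7 and GRHL2 were lower, with -0.68 and -1.92. CLDN7 was at 0 and EPCAM had 2 counts in the inactivated and 4 in the control group. Their part in the desmosomal results was not tested.

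Of the cadherin-related genes, CDHR1, CDHR3 and CDHR4 were tested. CDHR1 encodes a photoreceptor cadherin of the retina, and Group 3 medulloblastomas are known to express photoreceptor genes. It lies on the forward strand at chr10:84194537-84219621 and had 192, 197 and 190 CPM in inactivated libraries, against 158, 146 and 151 CPM in control libraries. With a log2 fold change of 0.35 ± 0.042 (adjusted p = 8.5e-07) it rose modestly and without overlap, and it was the second most abundant member per length in inactivated cells. CDHR3, an airway epithelial protein that serves as a rhinovirus C receptor, had 1.09, 1.27 and 1.23 CPM in inactivated libraries, against 3.69, 3.28 and 3.07 CPM in control libraries. It fell by 1.48 ± 0.16 on the log2 scale (adjusted p = 1.6e-07). CDHR4 stayed under 1 CPM in every library and its log2 fold change of 0.94 ± 0.33 (adjusted p = 0.019) was lost without inactivated replicate 2 (adjusted p = 0.13), without control replicate 1 (0.062) and without control replicate 2 (0.068).

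**Figure D2:**
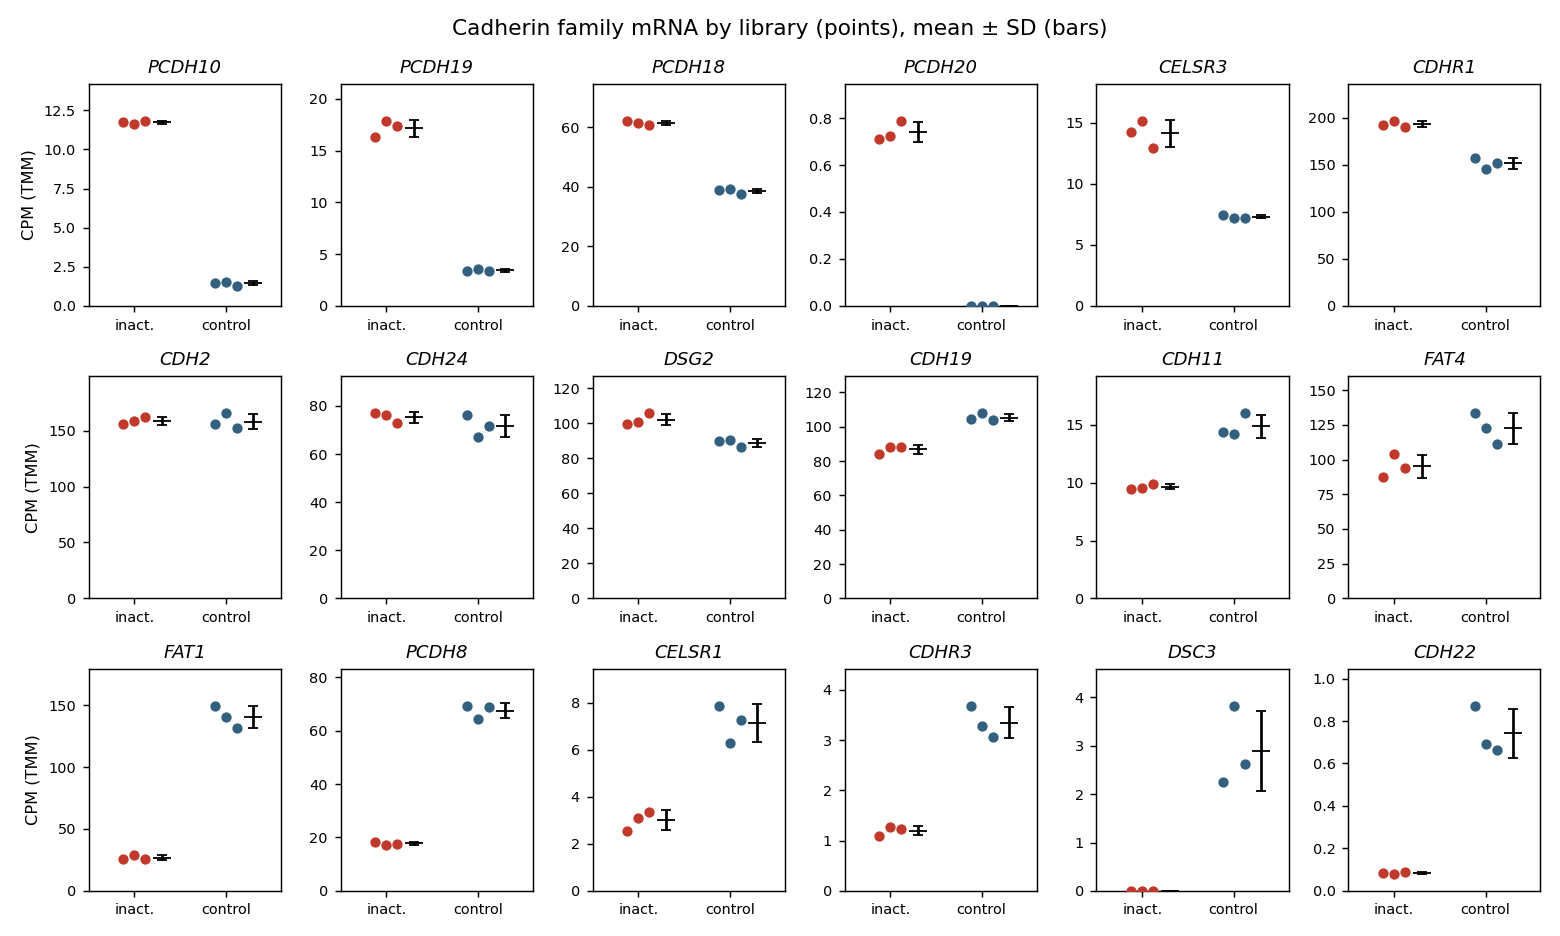
TMM-scaled CPM of 18 members in each library (points), with the mean and SD of 3 libraries beside them; every panel starts at 0 and has its own scale. PCDH20 is 0 in all control libraries and DSC3 in all inactivated ones, while the CDH2 and CDH24 groups overlap.

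The non-clustered protocadherins showed the largest rises of the well-measured members together with 1 of the largest falls. Of 13 genes 8 were tested, and 87.5% of these passed, where 59.3% of all genes tested did. There were 5 higher, 2 lower and 1 not past the threshold, with a median log2 fold change of 0.40. Proteins of this group act as homophilic adhesion molecules that regulate cell movement and axon growth, and several carry a conserved cytoplasmic motif that recruits the WAVE actin regulatory complex. For PCDH19 and PCDH8, which changed in opposite directions, the 250 bases before the RefSeq transcript start are shown on the gene strand, with CG dinucleotides in capitals. The PCDH19 window is chrX:100410274-100410523 on the reverse strand, and the PCDH8 window is chr13:52848641-52848890 on the reverse strand.
PCDH19: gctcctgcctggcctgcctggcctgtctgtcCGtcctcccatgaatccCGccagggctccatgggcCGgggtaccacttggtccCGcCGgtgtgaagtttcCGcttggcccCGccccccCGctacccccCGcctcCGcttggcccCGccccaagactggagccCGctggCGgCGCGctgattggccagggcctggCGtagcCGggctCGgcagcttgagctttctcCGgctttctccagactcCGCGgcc
PCDH8: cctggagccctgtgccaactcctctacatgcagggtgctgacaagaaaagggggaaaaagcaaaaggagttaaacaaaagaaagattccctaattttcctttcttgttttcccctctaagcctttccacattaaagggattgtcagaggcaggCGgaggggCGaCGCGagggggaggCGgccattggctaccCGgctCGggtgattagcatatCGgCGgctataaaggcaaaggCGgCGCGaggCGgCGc
The PCDH19 window has 21 CG and the PCDH8 window 14, where the median over 27303 RefSeq promoters is 11. The same windows of FAT1 and DSC3, both lower in inactivated cells, have 32 and 18 CG. A link between CG number and direction was not tested. DNA methylation was not measured in these libraries.

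PCDH10, known to be silenced by promoter methylation in several cancers, lies on the forward strand at chr4:133149294-133208606. It had 11.8, 11.7 and 11.8 CPM in inactivated libraries, against 1.49, 1.56 and 1.29 CPM in control libraries. Inactivated cells held 8.09-fold more PCDH10 mRNA, with a log2 fold change of 3.02 ± 0.11, an interval of 2.79 to 3.24 (adjusted p = 2.5e-14). PCDH19, an X-linked protocadherin whose mutations cause an epilepsy of females, had 16.3, 17.9 and 17.4 CPM in inactivated libraries, against 3.32, 3.60 and 3.40 CPM in control libraries. It was 4.99-fold higher, with a log2 fold change of 2.32 ± 0.085 (adjusted p = 3.2e-14). For both genes the lowest inactivated library was several times above the highest control library.

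PCDH18, which in mice binds the adaptor DAB1, was more abundant in both groups. It had 62.2, 61.4 and 60.7 CPM in inactivated libraries, against 38.8, 39.1 and 37.6 CPM in control libraries. The groups were far apart for their spread, at 1.59-fold (log2 fold change 0.67 ± 0.045, adjusted p = 2.4e-10). PCDH20 lies on the reverse strand at chr13:61409685-61415849. It had 26, 36 and 27 counts in inactivated libraries, against 0 counts in each control library, at least 25.5-fold higher against a floor of 3 counts over the group (adjusted p = 1.3e-07). Its level in inactivated cells was low, at 0.711 to 0.789 CPM.

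PCDH8, which in rodents is known as arcadlin and is tied to N-cadherin turnover at synapses, was the non-clustered protocadherin that fell most. It lies on the reverse strand at chr13:52842889-52848640 and had 18.4, 17.3 and 17.7 CPM in inactivated libraries, against 69.4, 64.3 and 68.9 CPM in control libraries. The log2 fold change was -1.92 ± 0.053, with an interval of -2.03 to -1.81 (adjusted p = 5.7e-16). Of the 10 other genes tested within 1 Mb, 6 were higher and 1 lower, with a median log2 fold change of 0.22. PCDH7 had 10.1, 10.5 and 11.3 CPM in inactivated libraries, against 13.3, 12.7 and 13.2 CPM in control libraries, a small fall of 0.30 ± 0.073 on the log2 scale (adjusted p = 0.0016). PCDH9 passed by the narrowest margin of all called members, with 29.2 ± 0.556 CPM in inactivated and 26.7 ± 0.445 CPM in control cells (log2 fold change 0.13 ± 0.053, adjusted p = 0.047). That call was lost whichever library was left out, with adjusted p from 0.060 to 0.14, and PCDH17 was not past the threshold at -0.24 ± 0.26.

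The clustered protocadherins lie side by side on chromosome 5 in the alpha, beta and gamma clusters. Every one of the 16 alpha and 16 beta entries was listed at 0 in all 6 libraries. Each of these 32 genes also has a copy of at least 95% of its exon length on an alternate locus of GRCh38.p14. Outside the family, 663 of 1001 protein-coding genes with such a copy were at 0 in all libraries (66.2%), against 2695 of 17889 without one (15.1%). Because of this the zeros are not read as a level for the alpha and beta genes in either group. The alternate entries of the family themselves held at most 2 counts in any library.

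None of the 22 gamma genes was at 0 in all libraries, and 10 were tested, with 1 higher, 4 lower and 5 not past the threshold. The share that passed was 50%, where it was 59.3% of all genes tested. In each gamma transcript a variable first exon is joined to constant exons shared by the cluster. In the annotation counted here every gamma gene shared 27.5% to 45.8% of its exon bases with the 21 others, and how reads over shared exons were counted is not given, so levels of single gamma genes are uncertain. Summed, gamma genes had 7.25 ± 0.888 CPM in inactivated and 9.69 ± 0.546 CPM in control cells. PCDHGB1, the most abundant, had 2.38, 2.62 and 2.75 CPM in inactivated libraries, against 3.46, 4.18 and 3.46 CPM in control libraries (log2 fold change -0.52 ± 0.14, adjusted p = 0.0028).

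The 4 lower gamma genes lay near the start of the cluster, and PCDHGA10 lay further along. Among the 4 lay also PCDHGA3, not tested, and PCDHGA4, not past the threshold at -0.52 ± 0.35 (adjusted p = 0.21). Promoters of clustered protocadherins are known to share a conserved element with a CGCT core near which CTCF binds, and the 5 changed genes each hold the letters CGCTGT in the 250 bases before the start. The 66 bases around it are shown on the forward strand, in cluster order, with CGCTGT in capitals. The windows are chr5:141330379-141330444 for PCDHGA1, chr5:141338679-141338744 for PCDHGA2, chr5:141350001-141350066 for PCDHGB1, chr5:141359897-141359962 for PCDHGB2 and chr5:141412907-141412972 for PCDHGA10. For PCDHGB2 alone of these, the transcript start used lies inside the gene, which begins at chr5:141359994. Its 250 bases are chr5:141359886-141360135.
PCDHGA1: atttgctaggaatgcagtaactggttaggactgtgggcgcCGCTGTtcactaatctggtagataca
PCDHGA2: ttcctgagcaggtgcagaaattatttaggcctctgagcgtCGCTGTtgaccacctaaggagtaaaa
PCDHGB1: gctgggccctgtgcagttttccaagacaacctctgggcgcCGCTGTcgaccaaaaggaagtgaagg
PCDHGB2: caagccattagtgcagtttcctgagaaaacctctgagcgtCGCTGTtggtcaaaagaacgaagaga
PCDHGA10: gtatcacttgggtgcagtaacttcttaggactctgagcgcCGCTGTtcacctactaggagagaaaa
The letters CGCTGT are part of GCCGCTGT, the most frequent short word of the gamma windows (11 of 20), but not of all frequent words there. They were picked from these same windows, so their gamma share is high in part by that choice. On the gene strand they occurred in 17 of 20 gamma, 6 of 13 alpha and 1 of 14 beta windows. Among windows of other members they occurred in 2 of 38. Over all RefSeq promoters the share was 4.54% on the gene strand and 8.90% on both strands. The tested gamma genes not past the threshold, PCDHGA4, PCDHGA5, PCDHGA6, PCDHGA8 and PCDHGA9, hold the letters too. The letters were therefore not particular to the genes that passed. Those were 4 lower genes and PCDHGA10, whose call as higher held in 4 of 14 alternatives. Any part of the letters in these results was not tested.

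PCDHGA1, the first gene of the cluster, had 7, 6 and 6 counts in inactivated libraries, against 22, 21 and 19 counts in control libraries. Its log2 fold change was -1.90 ± 0.35 (adjusted p = 0.00013), although in the first lane alone it was -0.87 with an adjusted p of 0.13. PCDHGA2, the next gene, had 3, 7 and 6 counts in inactivated libraries, against 14, 15 and 13 counts in control libraries, with a log2 fold change of -1.59 ± 0.40 (adjusted p = 0.0023, and 0.063 in the first lane alone). Both were scarce and did not overlap between groups. PCDHGB2 had 0.355, 0.504 and 0.263 CPM in inactivated libraries, against 1.29, 1.44 and 1.14 CPM in control libraries, a log2 fold change of -1.74 ± 0.27 (adjusted p = 1.9e-05). PCDHGA10, further along, was the 1 gamma gene called higher, with 0.875, 0.746 and 0.701 CPM in inactivated libraries against 0.478, 0.547 and 0.452 CPM in control libraries. Its log2 fold change of 0.65 ± 0.27 had an adjusted p of 0.043 and no longer passed without inactivated replicate 1 (0.13), inactivated replicate 2 (0.060), control replicate 1 (0.10), control replicate 2 (0.056) or control replicate 3 (0.12). The 5 genes not past the threshold, PCDHGA4, PCDHGA5, PCDHGA6, PCDHGA8 and PCDHGA9, had log2 fold changes of -0.52 to 0.43.

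**Figure D3:**
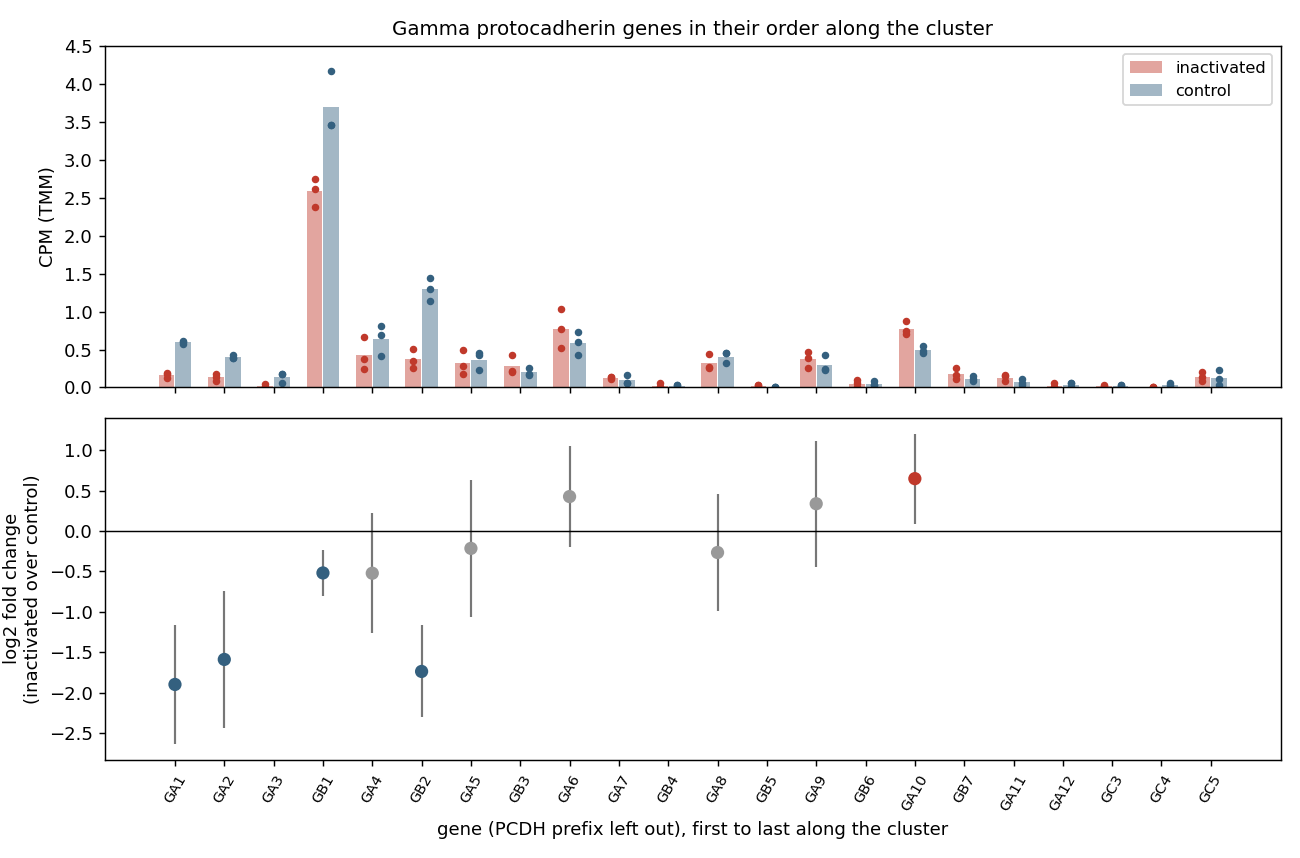
Gamma protocadherin genes in cluster order, with TMM-scaled CPM above (bars are means, points are libraries) and, below, the log2 fold change of the 10 tested genes with its 95% interval (blue lower, red higher, grey not past the threshold). The lower genes PCDHGA1, PCDHGA2, PCDHGB1 and PCDHGB2 stand at the start, with PCDHGA4 (grey) among them, and PCDHGA10 at 0.65 stands later.

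FAT1 gave the largest loss of the abundant members. FAT1, a giant cadherin whose cytoplasmic part binds actin regulators, lies on the reverse strand at chr4:186587794-186726696. It had 25.8, 28.8 and 26.1 CPM in inactivated libraries, against 150, 141 and 131 CPM in control libraries. No library came near the other group: FAT1 was 5.21-fold lower, with a log2 fold change of -2.38 ± 0.057, an interval of -2.50 to -2.26 (adjusted p = 7.2e-17). Of the 6 other genes tested within 1 Mb, 4 were lower and 1 higher, with a median log2 fold change of -0.53, and their part in the result was not tested.

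FAT4, which pairs with DCHS1, had 87.7, 104 and 94.3 CPM in inactivated libraries, against 133, 123 and 111 CPM in control libraries. It fell by 0.36 ± 0.063 on the log2 scale (adjusted p = 6.8e-05), much less than FAT1. FAT3, a member of retinal and other neurons, had 9.19, 10.5 and 8.83 CPM in inactivated libraries, against 12.3, 11.6 and 10.5 CPM in control libraries. Its groups overlapped narrowly, and the log2 fold change of -0.26 ± 0.087 (adjusted p = 0.015) no longer passed without inactivated replicate 3 (0.078), control replicate 1 (0.090) or control replicate 2 (0.051). FAT2, known from cerebellar granule cells, had 0.957, 1.17 and 0.994 CPM in inactivated libraries, against 0.675, 0.432 and 0.662 CPM in control libraries. Its log2 fold change was 0.83 ± 0.25 (adjusted p = 0.0091), and it was 0.65 with an adjusted p of 0.051 without control replicate 2 and 0.34 with an adjusted p of 0.43 in the first lane alone. DCHS1, the Dachsous ligand, had 1.42, 1.39 and 0.935 CPM in inactivated libraries, against 0.929, 0.835 and 0.542 CPM in control libraries. Its log2 fold change of 0.71 ± 0.25 (adjusted p = 0.021) no longer passed without inactivated replicate 1 (0.055) or control replicate 3 (0.11), and it was -0.0050 in the first lane alone.

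The 3 CELSR genes went 3 ways. CELSR3, needed for axon tracts of the forebrain in mice, lies on the reverse strand at chr3:48636463-48662886 and had 14.3, 15.2 and 12.98 CPM in inactivated libraries, against 7.48, 7.23 and 7.22 CPM in control libraries. It rose by 0.96 ± 0.08 on the log2 scale (adjusted p = 5.6e-09). CELSR1, the member of epithelia and neural progenitors, lies on the reverse strand at chr22:46361174-46537620 and had 2.54, 3.10 and 3.36 CPM in inactivated libraries, against 7.88, 6.28 and 7.28 CPM in control libraries. It fell by 1.25 ± 0.12 on the log2 scale (adjusted p = 5.3e-08). CELSR2, on the forward strand at chr1:109249539-109275751, was the most abundant of the 3, with 21.2, 23.3 and 22.1 CPM in inactivated libraries, against 25.1, 21.7 and 22.2 CPM in control libraries. Its groups overlapped, with an interval of -0.19 to 0.09 for the log2 fold change. The sum of the CELSR genes was 39.4 ± 1.95 CPM in inactivated and 37.5 ± 2.73 CPM in control cells.

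Compared per kilobase of exon not shared with any other annotated gene, CDH2 led in both groups, at 34.6 CPM per kb in inactivated and 34.5 CPM per kb in control cells. CDHR1 followed in inactivated cells with 23.2 CPM per kb, ahead of CDH24 at 20.6, and in control cells CDH24 at 19.6 stood ahead of CDHR1 at 18.2. DSG2 had rank 4 in both, at 18.3 CPM per kb in inactivated and 15.9 CPM per kb in control cells. Below these, PCDH8 held 3.50 CPM per kb in inactivated and 13.3 in control cells, ranks 8 and 5. FAT1 held 1.78 CPM per kb in inactivated and 9.27 in control cells, ranks 10 and 7. PCDH18 moved up to rank 5 with 10.4 CPM per kb in inactivated cells, against rank 9 with 6.50 in control cells.

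**Figure D4:**
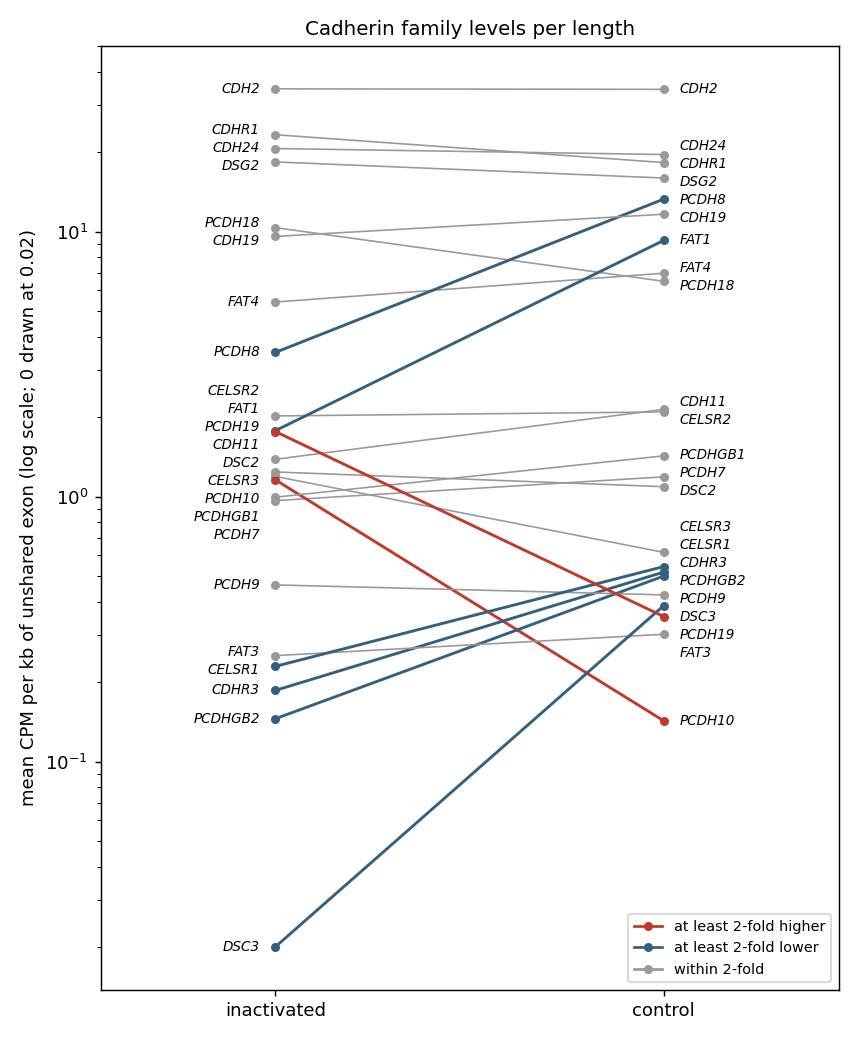
Mean CPM per kilobase of unshared exon on a log scale for tested members that reached 0.3 in a group, with lines joining inactivated (left) and control cells (right). CDH2 leads on both sides near 34.6 and 34.5, PCDH8 and FAT1 lie lower in inactivated cells, PCDH10 and PCDH19 lie higher, and DSC3 at 0 is drawn at 0.02.

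The 71 members that were not tested were 38 at 0 in all 6 libraries, among them the 32 alpha and beta genes, and 33 with some counts. The highest of these averaged 0.316 CPM in a group. A library's floor of 3 counts was 0.0612 to 0.0895 CPM, before TMM scaling, so a gene with 0 counts in a library may still hold a level up to that. This bound does not hold for the alpha and beta genes, whose zeros are not read as a level. Nor does it hold for CDHR5, also at 0, which has an alternate-locus copy of at least 95% of its exon length. DCHS2, also at 0, has an alternate-locus copy below that length, so the bound is uncertain for it. PCDHGA3 had 2 counts in the inactivated group and 14 in the control group, which is 8.14-fold higher in control cells (95% interval from counting error, 1.87 to 73.8). CDH12 had 0 counts in the inactivated and 6 in the control group, at least 2.33-fold higher in control cells against the group floor.

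Genes that work with cadherins moved in both directions. Counts in these lists stand against a background of 59.3% of all genes tested that changed, 29.6% higher and 29.7% lower. All 9 tested genes of the 11 listed as catenins and related proteins changed, 3 higher and 6 lower, with a median log2 fold change of -0.24. JUP, which encodes plakoglobin, the catenin shared by adherens junctions and desmosomes, averaged 68.7 ± 4.84 CPM in inactivated and 21.2 ± 1.40 CPM in control cells (log2 fold change 1.70 ± 0.062, adjusted p = 2.7e-14). CTNND2, the neural delta-catenin, averaged 18.2 ± 1.03 CPM in inactivated and 30.3 ± 1.40 CPM in control cells (-0.74 ± 0.062, adjusted p = 5.3e-09). PKP4, another armadillo protein of junctions, fell by 0.37 ± 0.041 on the log2 scale (adjusted p = 2.8e-07). Of 8 desmosome plaque genes only DSP, JUP and PERP were tested. DSP, which encodes desmoplakin, the link to intermediate filaments, averaged 276 ± 16.7 CPM in inactivated and 178 ± 4.22 CPM in control cells (0.64 ± 0.047, adjusted p = 7.6e-10), and PERP, a desmosomal membrane protein, fell by 1.15 ± 0.11 on the log2 scale (adjusted p = 5.9e-08). JUP and DSP were higher in the same libraries in which DSC3 was at 0 and DSG2 was slightly higher.

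Of 13 nectins and junction linkers 11 were tested, 3 higher and 4 lower. NECTIN3, an immunoglobulin-like adhesion molecule that pairs with nectin 1, averaged 2.25 ± 0.194 CPM in inactivated and 26.8 ± 2.25 CPM in control cells (log2 fold change -3.57 ± 0.094, adjusted p = 3.0e-16). AFDN, the afadin that ties nectins to actin, averaged 124 ± 6.21 CPM in inactivated and 49.8 ± 1.23 CPM in control cells (1.32 ± 0.047, adjusted p = 2.2e-14). VCL, vinculin, which reinforces junctions under tension, averaged 122 ± 4.21 CPM in inactivated and 300.5 ± 13.6 CPM in control cells (-1.30 ± 0.045, adjusted p = 1.5e-14). Nectin 3 and its linker afadin changed in opposite directions.

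Of 17 planar polarity and Fat-Dachsous partners 16 were tested, 7 higher and 6 lower, with a median log2 fold change of 0.03. The count of 13 called was 8 in the second lane alone and 5 against a null fold of 1.5 (glmTreat), where the background was 15.5%. The receptor FZD3 averaged 50.1 ± 2.88 CPM in inactivated and 25.5 ± 1.67 CPM in control cells (0.97 ± 0.059, adjusted p = 5.1e-11). Its relative FZD6 averaged 51.8 ± 1.13 CPM in inactivated and 100.2 ± 2.59 CPM in control cells (-0.95 ± 0.044, adjusted p = 8.0e-13). PRICKLE1, a cytoplasmic polarity protein, fell by 0.86 ± 0.048 on the log2 scale (adjusted p = 1.5e-11). FZD3 and CELSR3, which act together in axon guidance in mice, were both higher.

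Of 14 tested signalling partners of protocadherins, 3 were higher and 7 lower, with a median log2 fold change of -0.11. CYFIP2, a WAVE complex subunit, averaged 18.3 ± 1.38 CPM in inactivated and 63.7 ± 2.87 CPM in control cells (-1.80 ± 0.059, adjusted p = 5.7e-15). DAB1, the reelin adaptor, averaged 9.39 ± 0.937 CPM in inactivated and 34.2 ± 1.90 CPM in control cells (-1.87 ± 0.072, adjusted p = 6.6e-14). ABI1, a WAVE subunit that also binds ABL kinases, rose by 0.64 ± 0.043 on the log2 scale (adjusted p = 2.1e-10). All 15 regulators of protocadherin promoters and chromatin were tested, with 2 higher, 6 lower and a median of 0.0049. DNMT3B, a DNA methyltransferase that in mice acts on the clustered promoters, averaged 37.2 ± 2.90 CPM in inactivated and 18.6 ± 0.607 CPM in control cells (1.00 ± 0.063, adjusted p = 9.1e-11). TET1, which oxidises methylcytosine, rose by 0.64 ± 0.056, and the cohesin subunit STAG1 fell by 0.52 ± 0.047, both on the log2 scale (adjusted p = 9.9e-09 and 1.3e-08).

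Of 14 shedding and turnover genes, all tested, 5 were higher and 5 lower, with a median log2 fold change of -0.02. EXOC2, an exocyst subunit, averaged 92.4 ± 3.33 CPM in inactivated and 55.2 ± 1.47 CPM in control cells (0.74 ± 0.045, adjusted p = 5.1e-11). PSEN2, a presenilin of gamma-secretase, rose by 0.47 ± 0.058 (adjusted p = 1.2e-06), and RAB11A, which recycles cadherins to the surface, fell by 0.30 ± 0.039 (adjusted p = 1.9e-06), on the log2 scale. Changes in this list were small beside those of FAT1, PCDH8 or PCDH10.

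**Figure D5:**
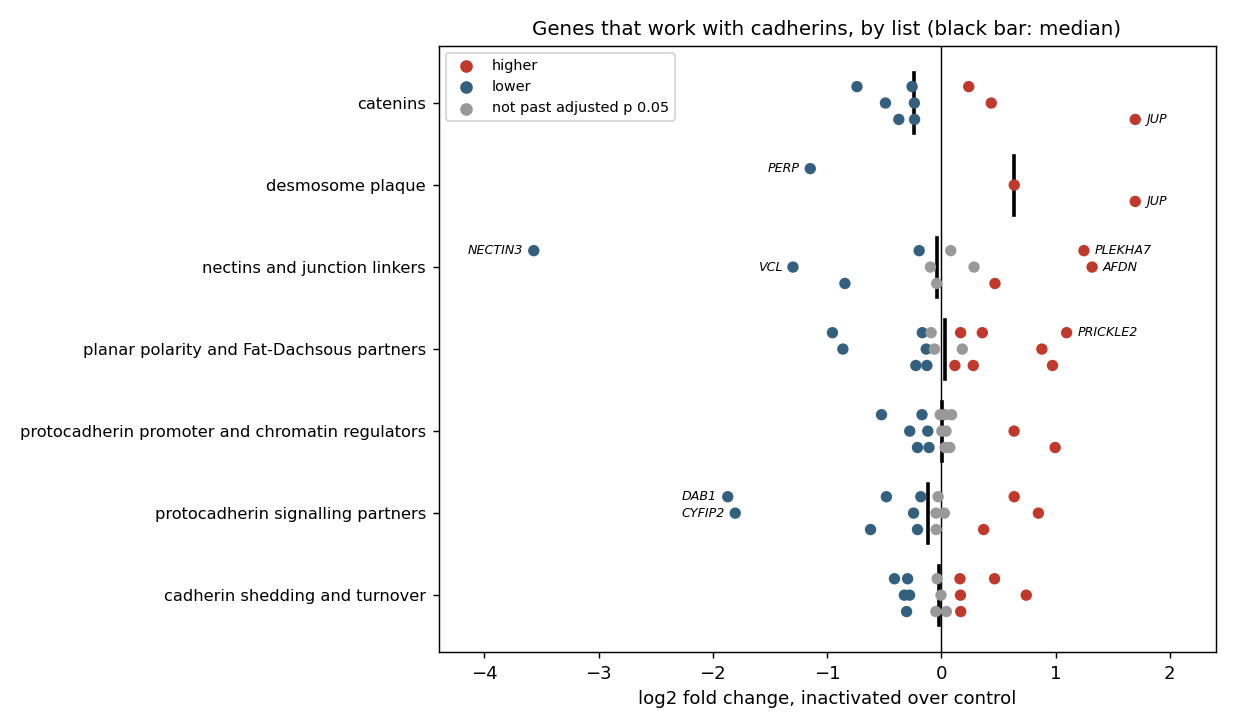
Log2 fold change (inactivated over control) of tested genes in 7 lists of cadherin partners, 1 point per gene, with the list's median as a black bar and names where the size reached 1. The catenin median is -0.24 and the protocadherin signalling median -0.11, and NECTIN3 at -3.57 and JUP at 1.70 lie outermost.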

How the data were processed

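Per the labels' protocols, RNA was extracted from pellets with the RNeasy Plus Mini Kit, mRNA libraries were made with KAPA mRNA HyperPrep, and 50 bp read pairs were sequenced. The submitters' processing notes list featureCounts 1.6.3, STAR 2.7.2b, MultiQC 1.11, FastQC 0.11.9 and DESeq2 1.36.0, and the build GRCh38.p14. The authors deposited raw counts per gene and lane. The strand setting and the treatment of reads with several alignments are not given in the sources used here. Of 49677 genes 26 had no counts and were left out, none a member.

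The 12 samples are 6 libraries on 2 lanes, which were summed. Genes were filtered with filterByExpr (minimum count 10, total 15), scaled by TMM and compared with edgeR 4.0.16 by its two-sided quasi-likelihood test, with p-values adjusted over 14704 genes (Benjamini-Hochberg) and a threshold of 0.05. Rose, fell, higher and lower in counts mean past that threshold. Tested on simulated data over 14485 genes with 200 changed, it recovered 75% at 1.5-fold and 84% at 2-fold, and 5.45% of 165 calls were false. A far smaller share of genes changed there than was called in these data, so these are not the error rates of the calls here. Intervals and floors of counts cover counting error only. RefSeq (GRCh38.p14) gave coordinates and promoter sequences, the latter for 85 members. Named members are those tested with at least 2 CPM in the higher group or a log2 fold change of at least 1 in size, and of each partner list up to 3 genes with the lowest p. Members called outside this rule, and those named with counts too low to test, were chosen after their values were seen. The members and lists were chosen with earlier results of these data known. Alternatives were other scalings, filters, tools (DESeq2 1.42.0, limma-voom in limma 3.58.1, glmTreat), single lanes and leaving out each library.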

Additional observations from a re-analysis of the deposited data

How the results depend on the processing

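Of 32 members followed through up to 15 alternatives, 12 kept their direction and call in each alternative that tested them (14 for PCDH20 and CDH22, which the filter of 1 CPM removed). These include FAT1, PCDH8, PCDH10, PCDH19, CELSR1, CELSR3, CDHR3 and PCDHGB2. Against a null fold of 1.5 (glmTreat), 2280 genes passed (1128 higher, 1152 lower). Against 15.5% of all tested genes, that test called 14 of 40 members, 5 higher and 9 lower. By subfamily it called 2 type II, 1 CDHR, 1 desmosomal, 4 non-clustered PCDH, 3 gamma, 1 FAT and 2 CELSR. Of the tested partner genes it called 2 of 9 in the catenin list, 2 of 3 desmosome plaque genes and 5 of 11 nectins and junction linkers. It also called 5 of 16 polarity genes, 1 of 15 promoter regulators, 2 of 14 signalling partners and 1 of 14 turnover genes. ABL2 no longer passed at -0.41. Higher members numbered 8 of 23 tested at a filter of 1 CPM in 3 libraries, 9 with DESeq2 and 9 in lane 1 alone. At that filter 2 type II and 2 gamma genes were called, and in lane 1 alone 2 gamma and 2 FAT genes. Without a filter 5 desmosome plaque genes were called, and in lane 2 alone 8 polarity genes.

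CELSR2 turned to 0.020 without control replicate 1 (range without 1 library, -0.088 to 0.020). CDH2 turned to -0.0039 without a filter, to -0.021 in lane 2 alone, and to -0.0058, -0.0047 and -0.018 without inactivated replicate 3, control replicate 1 and control replicate 3 (range, -0.018 to 0.046). DCHS1 was -0.0050 in lane 1 alone, where the calls of CDHR4, DSC2, FAT2, FAT3, PCDHGA1, PCDHGA2 and PCDHGA10 were also lost; in lane 2 alone those of CDH8, PCDH9 and PCDHGA10 were. Leaving out 1 library at a time, 7821 to 8660 genes were called (3926 to 4313 higher, 3895 to 4347 lower), with 24 to 27 members (10 to 13 higher, 14 to 16 lower), 2 to 4 FAT genes and 9 to 13 polarity genes. The cause of these differences was not tested. No other scaling moved the median log2 fold change of all genes by over 0.1. No paired analysis was possible because the labels give the groups no shared replicate numbers. The depth limits the 15 tested members under 1 CPM in both groups.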
